A study of Mus musculus with 4 samples.

Results

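The genes of oxygen sensing and of the response driven by the hypoxia-inducible factors (HIFs) that were followed here are 31 genes taken by symbol from a deposited table of 54446 genes. They are the subunits of HIF, the enzymes that mark it for destruction, and target genes outside glycolysis. RNA was sequenced from 100 endothelial cells per library, sorted by flow cytometry from retinas of C57BL/6 mice at postnatal day 16. There were 2 libraries titled Zeb1-CKO, whose genotype field reads Zeb1 knockdown, and 2 libraries whose genotype field reads control. Zeb1 encodes a zinc-finger repressor of epithelial genes, and the comparison asks how retinal endothelial expression differs when it is targeted. The sources used here do not name a Cre driver or say whether libraries came from separate animals, so each p reflects the spread among these libraries alone, which may be technical.

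HIF is a pair of proteins, an oxygen-regulated alpha subunit and the stable beta subunit ARNT. In oxygen, prolyl hydroxylases of the EGLN family modify the alpha subunit, the VHL protein then binds it, and it is degraded. When oxygen is low the alpha subunit accumulates and the pair binds DNA at hypoxia response elements. HIF is thus controlled mainly at the level of protein, while EGLN3 and many metabolic, matrix and stress genes are induced as its targets. In the developing retina, low oxygen in tissue that is not yet perfused drives the growth of vessels. No oxygen level, HIF protein or DNA binding was measured in these libraries.

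The values are FPKM, fragments scaled to transcript length and library total, so levels can be compared between genes. From the steps between low values the depth was estimated at 21940000 and 16760000 fragments in Zeb1-CKO libraries and 20560000 and 11180000 fragments in control libraries. At these depths 1 fragment of a transcript of 2000 bases is worth 0.0228 to 0.0447 FPKM. Zeb1 was at 8.66 and 7.07 FPKM in Zeb1-CKO libraries, against 10.7 and 11.1 FPKM in control libraries, and its adjusted p of 0.235 in limma's test did not pass. A value per gene cannot separate a deleted exon from the rest of the transcript, so this is a weak check of the labels. All 10 endothelial markers were detected, with sums of 4308 and 4713 FPKM in Zeb1-CKO libraries and 3800 and 4539 FPKM in control libraries. Markers of other cells were also present. The 10 pericyte and smooth-muscle genes summed to 1652 and 1806 FPKM in Zeb1-CKO libraries, against 2512 and 2025 FPKM in control libraries. Each of the 10 was lower in both Zeb1-CKO libraries than in both controls, against 22.3% of all genes tested, and Tagln was called. The 6 red-cell genes summed to 746 and 1409 FPKM in Zeb1-CKO libraries, against 2729 and 3298 FPKM in control libraries. All 5 that were tested were lower in both Zeb1-CKO libraries than in both controls. Each had an unadjusted p under 0.05 in limma's test, and none was called. Markers of other retinal cells had lower sums. The 9 photoreceptor genes summed to 40.9 and 47.8 FPKM in Zeb1-CKO libraries and 78.6 and 8.99 FPKM in control libraries. The 10 microglial genes summed to 21.01 and 9.02 FPKM in Zeb1-CKO libraries and 21.27 and 62.4 FPKM in control libraries, and all 6 that were tested had a negative log2 fold change, with a median of -1.22 and no call, while 3 had an unadjusted p under 0.05 in limma's test. The 8 genes of Müller glia and astrocytes summed to 179 and 259 FPKM in Zeb1-CKO libraries and 186 and 187 FPKM in control libraries, and the 9 of inner retinal neurons to between 40.3 and 73.7 FPKM. Of the defining markers, the microglial gene Aif1 was at 0 in Zeb1-CKO 1, the cone genes Arr3 and Opn1mw in control 2, and the astrocyte gene Aqp4 in both control libraries. In such samples fewer cells of a type and less RNA per cell cannot be told apart.

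Of the 31 genes, 29 averaged 1 FPKM or more and were tested. Hif3a and Lox stayed below it. In Zeb1-CKO cells 1 gene rose, Egln3, and 1 fell, Ddit4, by limma on log2(FPKM + 1) with a Benjamini-Hochberg adjusted p under 0.05 over all genes tested. Of all 13651 genes tested, 2.23% were called higher and 0.901% lower. A fold change was positive for 15 of the 29 and negative for 14, against 52.8% positive over all genes tested, and the median log2 fold change was 0.04, against 0.02. Of the 29 genes, 10 (34.5%) had both Zeb1-CKO libraries above both controls, and 9 had both below. Among all genes tested these shares were 27.1% and 22.3%. The median size of a fold change, without its sign, was 0.26 on the log2 scale, against 0.21 over all genes tested. The list as a whole was thus spread to both sides. An unadjusted p under 0.05 was reached by 6 of the 29, with Car9 and Stc2 among them, against 17.9% of all genes tested. With any 1 of the 4 libraries left out, neither call was kept.

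**Figure D1:**
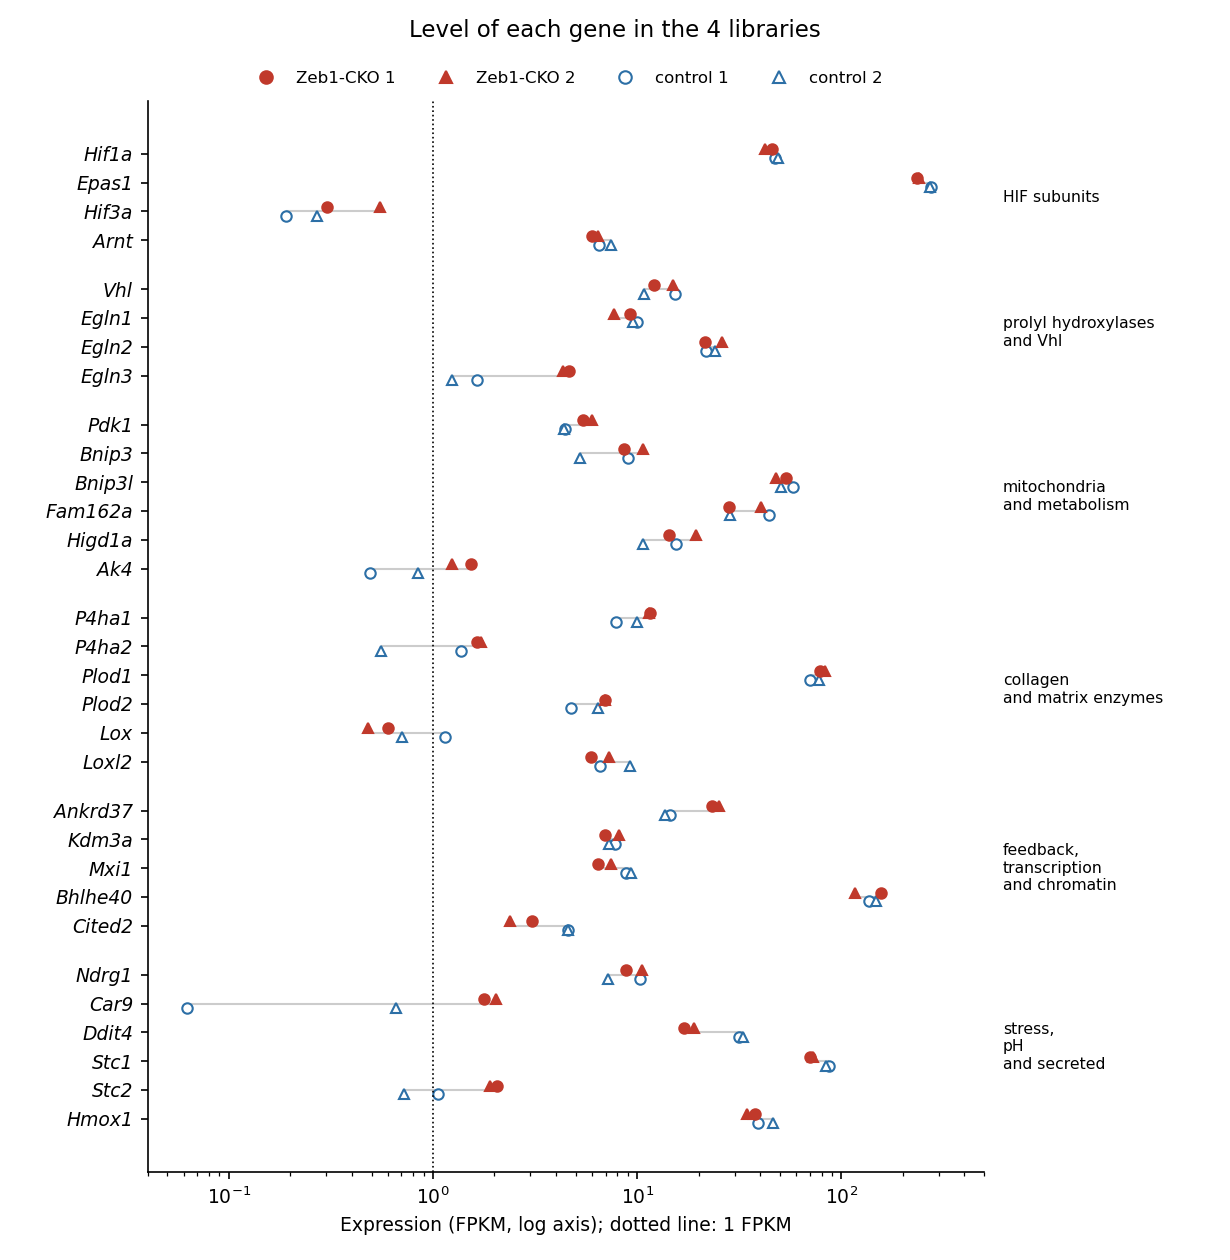
Expression of the 31 genes in each library, in FPKM on a log axis, ordered by role, with Zeb1-CKO libraries as filled red and control libraries as open blue symbols; the grey line spans the 4 values and the dotted line marks 1 FPKM. Levels run from Hif3a, below 1 FPKM in every library, to Epas1, between 236 and 275 FPKM, and the genotypes stand clearly apart for Egln3, Car9, Ankrd37 and Ddit4.

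The HIF alpha subunits differed in level far more than the genotypes did. Epas1, which encodes HIF-2 alpha, the alpha subunit typical of endothelium, was at 236 and 239 FPKM in Zeb1-CKO libraries, against 275 and 271 FPKM in control libraries. It was the most abundant of the 31 genes, above 99.1% of all genes tested. Its transcription start lies on chromosome 17 at 86753907 of mm10. Hif1a, which encodes HIF-1 alpha, was at 45.7 and 42.3 FPKM in Zeb1-CKO libraries, against 47.3 and 48.8 FPKM in control libraries. For both genes each Zeb1-CKO library was below each control library. Epas1 was thus 5.16 and 5.66 times as abundant as Hif1a in Zeb1-CKO libraries, and 5.82 and 5.55 times in control libraries, so the balance between the subunits overlapped between genotypes. The sum of both was 281.5 and 281.7 FPKM in Zeb1-CKO libraries and 323 and 319 FPKM in control libraries. Arnt, the gene of the beta subunit, was at 6.03 and 6.46 FPKM in Zeb1-CKO libraries, against 6.47 and 7.48 FPKM in control libraries. Its libraries did not overlap, by a margin smaller than the gap between the controls. Hif3a, whose products include inhibitors of the pathway, was at 0.302 and 0.550 FPKM in Zeb1-CKO libraries, against 0.192 and 0.271 FPKM in control libraries.

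None of the 3 tested subunits passed limma's test or had an unadjusted p under 0.05, although all 3 had a negative fold change. The log2 fold change was -0.20 for Epas1, with a 95% interval of -0.51 to 0.11 and an adjusted p of 0.471 in limma's test. For Hif1a it was -0.12, with an interval of -0.44 to 0.19, and for Arnt -0.14, with an interval of -0.51 to 0.23. The sign was negative for all 3 under every scaling. With any 1 library left out the sign could not change, since each Zeb1-CKO library was below each control library. Pericyte markers had lower sums in Zeb1-CKO libraries, as given above, and their part in the Epas1 values was not tested.

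Among the genes that end HIF signalling, Egln3 stood apart. EGLN3 is an oxygen-dependent prolyl hydroxylase that is itself a strong HIF target. Egln3, on chromosome 12 from 54178981 to 54203860 on the minus strand, was at 4.64 and 4.32 FPKM in Zeb1-CKO libraries, against 1.65 and 1.24 FPKM in control libraries. Both Zeb1-CKO libraries were well above both controls. The mean was 4.48 ± 0.225 FPKM in Zeb1-CKO cells and 1.44 ± 0.289 FPKM in control cells (SD, n = 2 each), a ratio of 3.11. The log2 fold change on log2(FPKM + 1), which understates changes of low genes, was 1.17 (SE 0.18, 95% interval 0.73 to 1.61), with an adjusted p of 0.0320 by limma. Over the alternatives the fold change ranged from 1.05 to 1.58, with an adjusted p between 0.0315 and 0.190. Without 1 library the fold change stayed between 1.05 and 1.29, with an adjusted p between 0.0519 and 0.190.

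The 2 other prolyl hydroxylase genes were more abundant and differed little. Egln2 was at 21.4 and 26.2 FPKM in Zeb1-CKO libraries, against 21.8 and 24.1 FPKM in control libraries. Egln1, whose product is regarded as the main HIF hydroxylase in oxygen, was at 9.22 and 7.72 FPKM in Zeb1-CKO libraries, against 9.95 and 9.54 FPKM in control libraries. Egln2 values overlapped between genotypes, and Egln1 values were slightly lower in Zeb1-CKO libraries without overlap. Egln3 therefore made up 13.2% and 11.3% of the summed FPKM of the 3 genes in Zeb1-CKO libraries, against 4.94% and 3.55% in control libraries. A share within a library does not depend on how the libraries are scaled. The 2-sided exact permutation p for this share was 0.333, the smallest that 2 libraries against 2 can give. The sum of the 3 genes was 35.2 and 38.2 FPKM in Zeb1-CKO libraries and 33.4 and 34.9 FPKM in control libraries. Vhl, the gene of the protein that recognises hydroxylated HIF, was at 12.2 and 14.9 FPKM in Zeb1-CKO libraries, against 15.3 and 10.8 FPKM in control libraries. These values overlapped, and the 95% interval of its log2 fold change was -0.45 to 0.58. The intervals were -0.34 to 0.43 for Egln2 and -0.56 to 0.19 for Egln1.

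**Figure D2:**
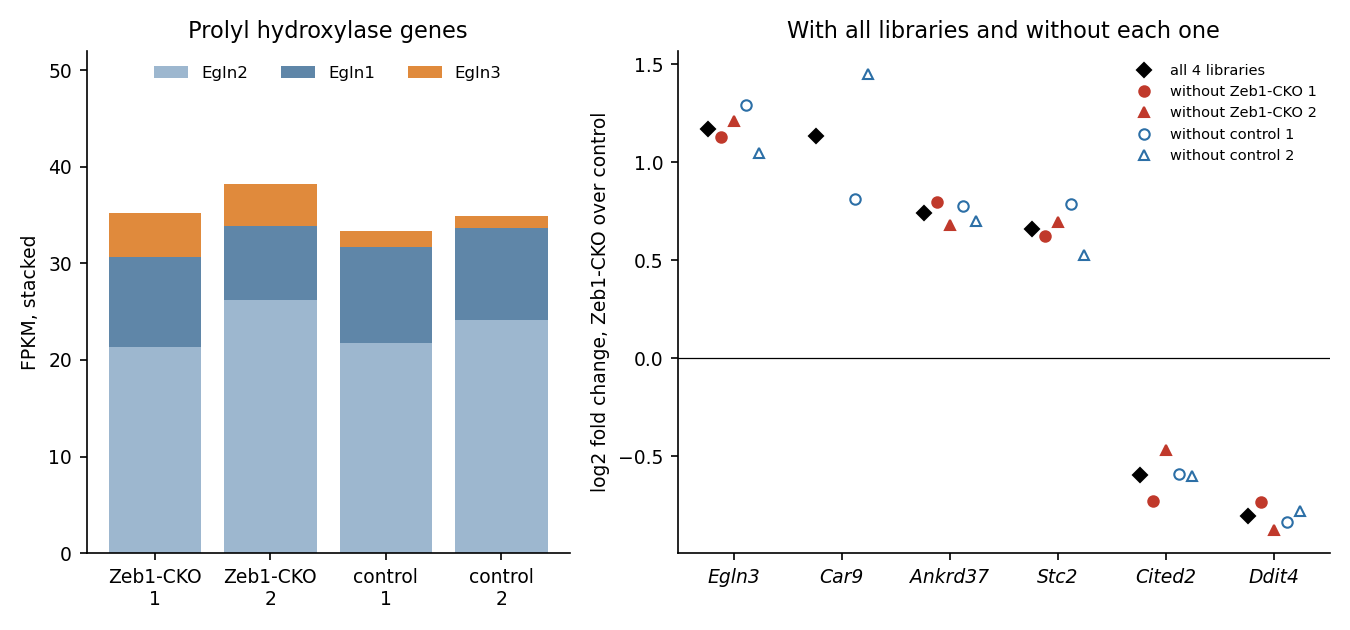
Left, stacked FPKM of the 3 prolyl hydroxylase genes in each library; right, the log2 fold change of 6 genes on log2(FPKM + 1), Zeb1-CKO over control, with all 4 libraries (black diamonds) and without each library in turn. Egln3 takes 13.2% and 11.3% of the stack in Zeb1-CKO libraries against 4.94% and 3.55% in control libraries. The libraries of these 6 genes do not overlap between genotypes, so leaving out 1 library could not change a sign. Car9 has no value without a Zeb1-CKO library because its mean then falls below 1 FPKM.

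Targets that feed back on transcription and chromatin went both ways. Ankrd37, a small ankyrin-repeat gene widely used as a marker of HIF activity, was at 23.3 and 25.3 FPKM in Zeb1-CKO libraries, against 14.5 and 13.7 FPKM in control libraries. Both Zeb1-CKO libraries were far above both controls, relative to the gaps within each genotype. Its log2 fold change was 0.74 (SE 0.13, 95% interval 0.41 to 1.07), and its adjusted p of 0.0529 by limma missed the threshold. The adjusted p was 0.0482 to 0.230 over the alternatives, and the gene was called under 2 of 12. Ankrd37 lies on chromosome 8 from 45996902 to 46005707 and shares 349 of its 1539 exon bases with Lrp2bp on the opposite strand, in libraries whose protocol does not mark strand. Lrp2bp was at 0.499 and 0.348 FPKM in Zeb1-CKO libraries and 0.253 and 0.174 FPKM in control libraries.

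Cited2, which encodes a competitor of HIF for the coactivators p300 and CBP, was at 3.04 and 2.37 FPKM in Zeb1-CKO libraries, against 4.61 and 4.57 FPKM in control libraries. The genotypes did not overlap, and its log2 fold change of -0.60 (SE 0.17, 95% interval -1.01 to -0.18) had an adjusted p of 0.146 in limma's test. Mxi1, which encodes an antagonist of MYC, was at 6.41 and 7.40 FPKM in Zeb1-CKO libraries, against 8.86 and 9.33 FPKM in control libraries, again without overlap, with an interval of -0.72 to 0.01. Bhlhe40, a repressor of transcription and the second most abundant of the 31 genes, was at 156 and 117 FPKM in Zeb1-CKO libraries, against 137 and 148 FPKM in control libraries. The Zeb1-CKO libraries lay on either side of both controls. Kdm3a, which encodes a demethylase of histone H3, was at 6.94 and 8.16 FPKM in Zeb1-CKO libraries and 7.81 and 7.27 FPKM in control libraries, also overlapping, with an interval of -0.38 to 0.37.

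Stress genes and secreted factors held the only fall that passed the test. Ddit4, also called Redd1, encodes an inhibitor of mTORC1 that responds to hypoxia, glucocorticoids and other stresses. On chromosome 10 from 59949669 to 59951834, it was at 17.0 and 18.9 FPKM in Zeb1-CKO libraries, against 31.6 and 32.8 FPKM in control libraries. Both Zeb1-CKO libraries were far below both controls. The mean fell to 18.0 ± 1.33 FPKM in Zeb1-CKO cells, against 32.2 ± 0.894 FPKM in control cells (SD, n = 2 each), a ratio of 0.558. The log2 fold change was -0.81 (SE 0.13, 95% interval -1.14 to -0.48), with an adjusted p of 0.0411 by limma, between 0.0311 and 0.191 over the alternatives. Without 1 library the fold change lay between -0.88 and -0.74, with an adjusted p between 0.102 and 0.191. Egln3 and Ddit4, both known as HIF targets, thus moved in opposite directions in the same libraries. The Egln3 to Ddit4 ratio was 0.272 and 0.229 in Zeb1-CKO libraries, against 0.0522 and 0.0377 in control libraries. Both genes were picked by their calls in these libraries, so the ratio had to differ and adds no evidence.

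Car9, which encodes a membrane carbonic anhydrase that is nearly silent in most cells in oxygen, was low throughout. It was at 1.78 and 2.04 FPKM in Zeb1-CKO libraries, against 0.0626 and 0.657 FPKM in control libraries. The genotypes did not overlap, but the control values were 10.5-fold apart. Its log2 fold change was 1.13 (SE 0.28, 95% interval 0.44 to 1.83), with an adjusted p of 0.109 in limma's test. It was 0.81 without control 1 and 1.45 without control 2, and 1.58 and 2.52 with pseudocounts of 0.5 and 0.1, with an adjusted p of 0.0702 to 0.380 over the alternatives and no call. Car9, on chromosome 4 from 43506966 to 43513729, overlaps the antisense gene Gm12454 over 214 of 2304 exon bases; that gene was at 1.24 and 0.965 FPKM in Zeb1-CKO libraries and 0.311 and 0.635 FPKM in control libraries. Without strand, reads of the shared stretch cannot be assigned to either gene.

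The stanniocalcins, secreted glycoproteins, differed from each other. Stc2 was at 2.05 and 1.90 FPKM in Zeb1-CKO libraries, against 1.06 and 0.725 FPKM in control libraries, with a log2 fold change of 0.66 (SE 0.20) and an adjusted p of 0.177 in limma's test. Stc1 was at 70.1 and 72.7 FPKM in Zeb1-CKO libraries, against 87.3 and 84.2 FPKM in control libraries, with a log2 fold change of -0.26 (SE 0.12) and an adjusted p of 0.346 in limma's test. Neither gene overlapped between genotypes, so the low paralog was higher and the abundant paralog lower in Zeb1-CKO cells, and neither passed. Hmox1, the gene of heme oxygenase 1, which responds to heme as well as to hypoxia, was at 37.7 and 34.6 FPKM in Zeb1-CKO libraries, against 39.2 and 46.1 FPKM in control libraries, with a 95% interval of -0.59 to 0.13. The summed red-cell genes were also lower in both Zeb1-CKO libraries, and microglial genes were highest in control 2, the library with the highest Hmox1; their part in the Hmox1 values was not tested. Ndrg1, a stress-induced gene, overlapped between genotypes at 8.86 and 10.5 FPKM in Zeb1-CKO libraries and 10.3 and 7.17 FPKM in control libraries.

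**Figure D3:**
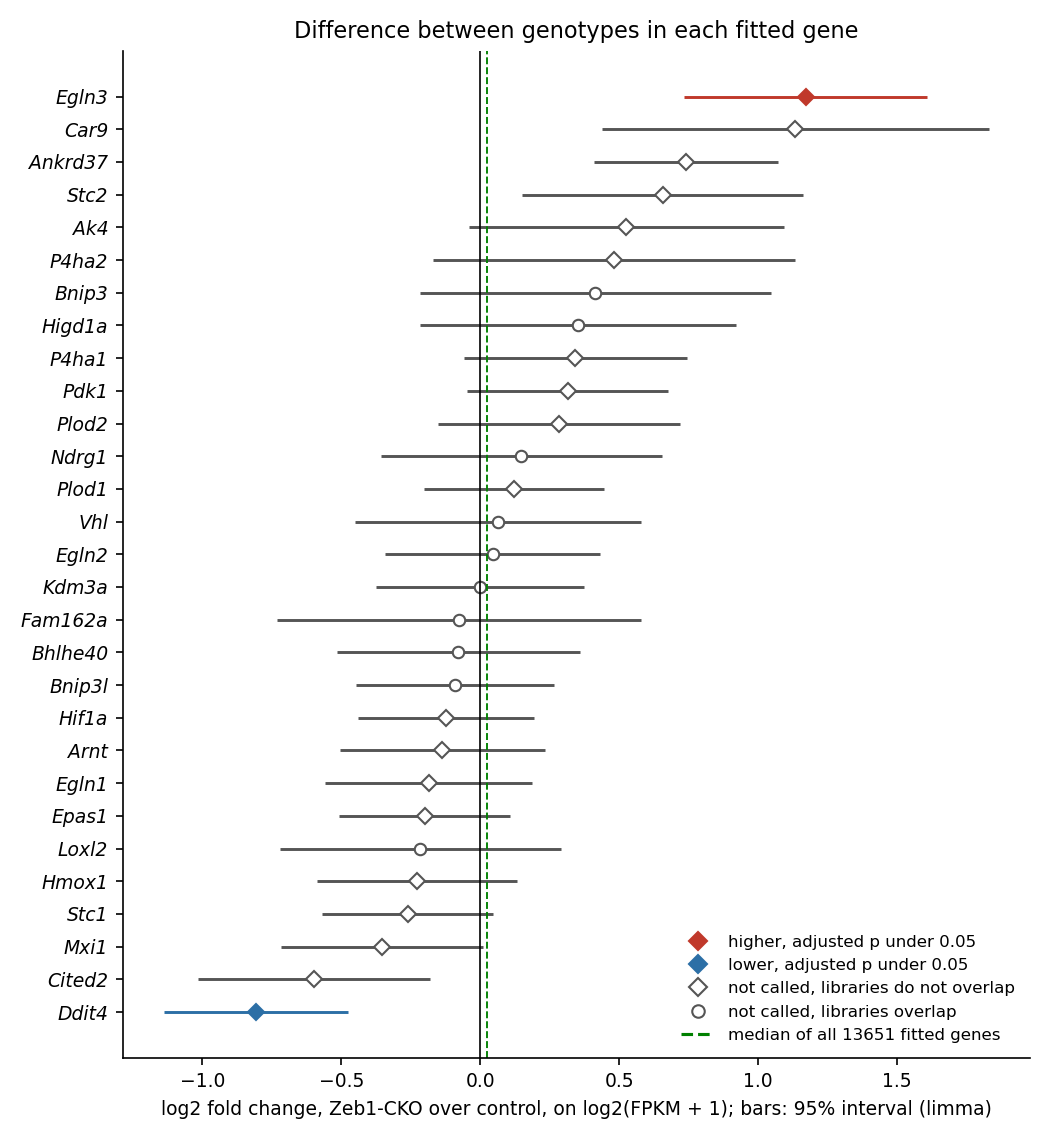
The log2 fold change of the 29 tested genes on log2(FPKM + 1), Zeb1-CKO over control, in order of size, with 95% intervals from limma; filled symbols passed the test, diamonds mark genes whose libraries do not overlap, and the dashed line is the median of all 13651 tested genes. Egln3 at 1.17 and Ddit4 at -0.81 are the ends of the order and the only called genes.

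The genes of collagen and matrix maturation lay mostly above the controls by small margins. P4ha1 and P4ha2 encode the catalytic subunits of collagen prolyl hydroxylase, and Plod1 and Plod2 encode lysyl hydroxylases of collagen. P4ha1 was at 11.6 and 11.4 FPKM in Zeb1-CKO libraries, against 7.84 and 9.99 FPKM in control libraries. Plod2 was at 6.98 and 6.96 FPKM in Zeb1-CKO libraries, against 4.77 and 6.46 FPKM in control libraries. In both genes the Zeb1-CKO libraries lay above both controls, which were themselves further apart. P4ha2 was at 1.64 and 1.72 FPKM in Zeb1-CKO libraries, against 1.37 and 0.555 FPKM in control libraries, and the abundant Plod1 at 78.7 and 83.1 FPKM in Zeb1-CKO libraries, against 70.6 and 78.1 FPKM in control libraries. All 4 were thus higher in Zeb1-CKO cells without overlap. That is 80% of the 5 tested genes of the group, against 27.1% of all genes tested. P4ha2 averaged 0.961 FPKM in control libraries and passed the filter only through its Zeb1-CKO values. The log2 fold changes of the 4 genes lay between 0.12 and 0.48, and their 95% intervals all included 0. Leaving out 1 library moved these differences by more than 1.5 times: P4ha1 ran from 0.18 without control 1 to 0.50 without control 2, Plod2 from 0.097 without control 1 to 0.47 without control 2, and Plod1 from 0.05 without control 1 to 0.19 without control 2. P4ha2 ran the other way, from 0.18 without control 2 to 0.78 without control 1. The cross-linking enzymes had the other sign. Loxl2 was at 5.94 and 7.30 FPKM in Zeb1-CKO libraries, against 6.56 and 9.27 FPKM in control libraries, and overlapped. Lox was too low to be tested, at 0.602 and 0.479 FPKM in Zeb1-CKO libraries, against 1.15 and 0.707 FPKM in control libraries. Of the 5 tested genes in this group 4 had a positive fold change, none passed limma's test and none had an unadjusted p under 0.05.

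Mitochondrial and metabolic targets also gave no call among 6 tested genes in limma's test, and none had an unadjusted p under 0.05. Pdk1, which encodes a kinase that blocks the entry of pyruvate into the mitochondrial citric acid cycle, was at 5.44 and 6.01 FPKM in Zeb1-CKO libraries, against 4.44 and 4.37 FPKM in control libraries. Ak4, a mitochondrial adenylate kinase gene, was at 1.54 and 1.23 FPKM in Zeb1-CKO libraries, against 0.491 and 0.840 FPKM in control libraries. Both were higher in Zeb1-CKO cells without overlap, with log2 fold changes of 0.32 (95% interval -0.05 to 0.68) and 0.52 (95% interval -0.04 to 1.09). Ak4 passed the filter by a small margin, with a mean of 1.03 FPKM, and has a processed copy of 99.6% identity, Ak3l2-ps, which stayed between 0.0724 and 0.400 FPKM. The mitophagy receptor gene Bnip3 was at 8.58 and 10.7 FPKM in Zeb1-CKO libraries, against 9.03 and 5.27 FPKM in control libraries. Higd1a, a gene of respiratory supercomplexes, was at 14.3 and 19.4 FPKM in Zeb1-CKO libraries, against 15.4 and 10.6 FPKM in control libraries. Fam162a, a mitochondrial protein gene, was at 28.2 and 40.3 FPKM in Zeb1-CKO libraries, against 44.2 and 28.6 FPKM in control libraries. These 3 overlapped between genotypes, and in Bnip3 and Higd1a the lowest of the 4 libraries was control 2. Control 2 was also the shallowest library and the one with the lowest photoreceptor sum, at 8.99 FPKM; the part of either in these values was not tested. Without control 2 the log2 fold change was 0.07 for Bnip3 and 0.10 for Higd1a, against 0.41 and 0.35 with all libraries.

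Bnip3l, which encodes the related mitophagy receptor NIX, was at 53.9 and 48.0 FPKM in Zeb1-CKO libraries, against 58.1 and 50.6 FPKM in control libraries. Its values are uncertain, since the processed copy Bnip3l-ps is 99.4% identical over 1131 bases and was listed at 20.5 and 18.8 FPKM in Zeb1-CKO libraries and 23.9 and 14.6 FPKM in control libraries. Summed over both, the values were 74.4 and 66.9 FPKM in Zeb1-CKO libraries, against 82.0 and 65.1 FPKM in control libraries. Each way of counting gave overlapping genotypes. Higd1a, Bnip3 and Fam162a share 22.5%, 22.3% and 19.8% of their exon bases with genes on the opposite strand, of which the partner of Fam162a, Wdr5b, was at 1.65 and 2.12 FPKM in Zeb1-CKO libraries and 1.86 and 2.19 FPKM in control libraries.

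Promoter sequence was set beside these values because HIF binds short elements in DNA. RefSeq windows of 250 bases before to 50 bases after the start (build GRCm38.p6, the same coordinates as mm10) were matched to 22 of the 31 genes, with 31 windows in all. Epas1, Bhlhe40, Bnip3l, Stc1, Loxl2, Lox, Plod2, Ndrg1 and Hmox1 had no entry. The core of the hypoxia response element was searched as ACGTG or GCGTG on both strands, where a stretch that matches on both strands counts for each. At least 1 window held it in 21 of the 22 genes, or 95.5%, against 68.0% of the 9236 tested genes with a window and 46.7% of all 27025 genes in the table. Both cores contain a CG pair, and windows of the 22 genes held a median of 25 such pairs, against 20 in windows of tested genes and 7 in all windows. Vhl was the gene without a match. CAGGTG, an E-box form bound by ZEB1 and the only form searched, stood on either strand in 6 of the 22 genes, or 27.3%, against 20.3% of tested genes. These were Hif1a, Egln1, Egln2, Bnip3, Car9 and Stc2, with fold changes in both directions and no call among them. A match is a description of letters, not a bound site.

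The 250 bases before the RefSeq start are shown for both called genes. They are also shown for the 2 genes with the next smallest p that hold the motif. They read 5′ to 3′ on the strand of the gene, and capitals mark ACGTG or GCGTG, or CACGT or CACGC where the match is on the opposite strand.
Egln3, chr12:54203875-54204124, minus strand: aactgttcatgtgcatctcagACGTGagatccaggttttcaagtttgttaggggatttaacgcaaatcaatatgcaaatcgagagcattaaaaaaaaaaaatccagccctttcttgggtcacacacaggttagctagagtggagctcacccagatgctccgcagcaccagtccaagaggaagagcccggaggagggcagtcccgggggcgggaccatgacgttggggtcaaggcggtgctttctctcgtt
Ddit4, chr10:59951771-59952020, minus strand: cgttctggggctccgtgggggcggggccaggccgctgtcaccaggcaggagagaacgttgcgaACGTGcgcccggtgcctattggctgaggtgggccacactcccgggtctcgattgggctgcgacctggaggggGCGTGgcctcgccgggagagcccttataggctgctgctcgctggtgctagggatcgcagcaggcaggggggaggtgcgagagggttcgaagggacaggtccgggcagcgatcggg
Ankrd37, chr8:45999851-46000100, minus strand: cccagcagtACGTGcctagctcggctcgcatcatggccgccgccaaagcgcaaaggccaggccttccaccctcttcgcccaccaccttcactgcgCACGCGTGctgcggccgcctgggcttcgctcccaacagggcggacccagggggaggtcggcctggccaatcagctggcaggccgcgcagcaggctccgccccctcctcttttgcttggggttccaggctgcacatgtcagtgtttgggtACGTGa
Car9, chr4:43506776-43507025, plus strand: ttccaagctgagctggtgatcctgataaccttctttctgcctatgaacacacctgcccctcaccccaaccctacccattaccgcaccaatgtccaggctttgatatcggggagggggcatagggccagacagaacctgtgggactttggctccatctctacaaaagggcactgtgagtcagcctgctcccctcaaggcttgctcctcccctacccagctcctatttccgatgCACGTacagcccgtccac

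Egln3 held 1 match, 229 bases before the start, and the element described for human EGLN3 lies in an intron, outside this window. Ddit4 held 2 matches, at 187 and 115 bases before the start. Ankrd37 held 4, at 241, 155, 152 and 6 bases, of which the middle pair shares bases. Its RefSeq start lies 5857 bases downstream of the start given in the deposited table, so the window belongs to another annotated start. Car9 held 1 match, 18 bases before the start on the opposite strand. The described element of the human CA9 promoter also lies close to its start. The RefSeq start of Car9 lies 60 bases downstream of the start given in the deposited table, so the match lies after that deposited start. The gene that rose and the gene that fell thus both carry the core letters, and neither window of theirs holds CAGGTG. Other E-box forms were not searched for.

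Other genes of the pathway were read from 3 further lists. Of 15 genes of HIF degradation and cofactors, 14 were tested and none was called, 1 had an unadjusted p under 0.05, and the median log2 fold change was -0.06. The most abundant were the chaperone genes Hsp90ab1, at 591 and 542 FPKM in Zeb1-CKO libraries against 524 and 521 FPKM in control libraries, and Hsp90aa1, at 66.5 and 54.0 FPKM in Zeb1-CKO libraries against 54.7 and 49.7 FPKM in control libraries. Of 19 glycolytic HIF targets, 17 were tested and none was called, while 15 had a positive fold change, 8 had an unadjusted p under 0.05 and the median was 0.45. In 12 of the 17 the Zeb1-CKO libraries lay above both controls, which is 70.6%, against 27.1% of all genes tested. Near-identical copies of the glycolytic genes were not searched for. Pkm, the gene of pyruvate kinase, was at 324 and 359 FPKM in Zeb1-CKO libraries, against 215 and 195 FPKM in control libraries, with an adjusted p of 0.0575 by limma. The glucose transporter gene Slc2a1 had the other sign, at 729 and 713 FPKM in Zeb1-CKO libraries, against 808 and 892 FPKM in control libraries. Beside the glycolytic list, with 15 of 17 above 0, the HIF targets outside glycolysis and the sensing genes had 15 of 29 above 0; the difference between the lists was not tested.

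Of 15 vascular HIF targets, all tested, 3 rose and none fell, against 2.23% and 0.901% of all genes tested, with a median log2 fold change of 0.10. Esm1, the gene of the endothelial proteoglycan endocan, had a log2 fold change of 2.70, the apelin gene Apln 1.81 and the placental growth factor gene Pgf 1.31. The ratio of mean FPKM was 3.18 for Pgf, 3.55 for Apln and 7.02 for Esm1, against 3.11 for Egln3. These lists hold genes that other pathways also control, and they were drawn up with earlier results of these data known.

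**Figure D4:**
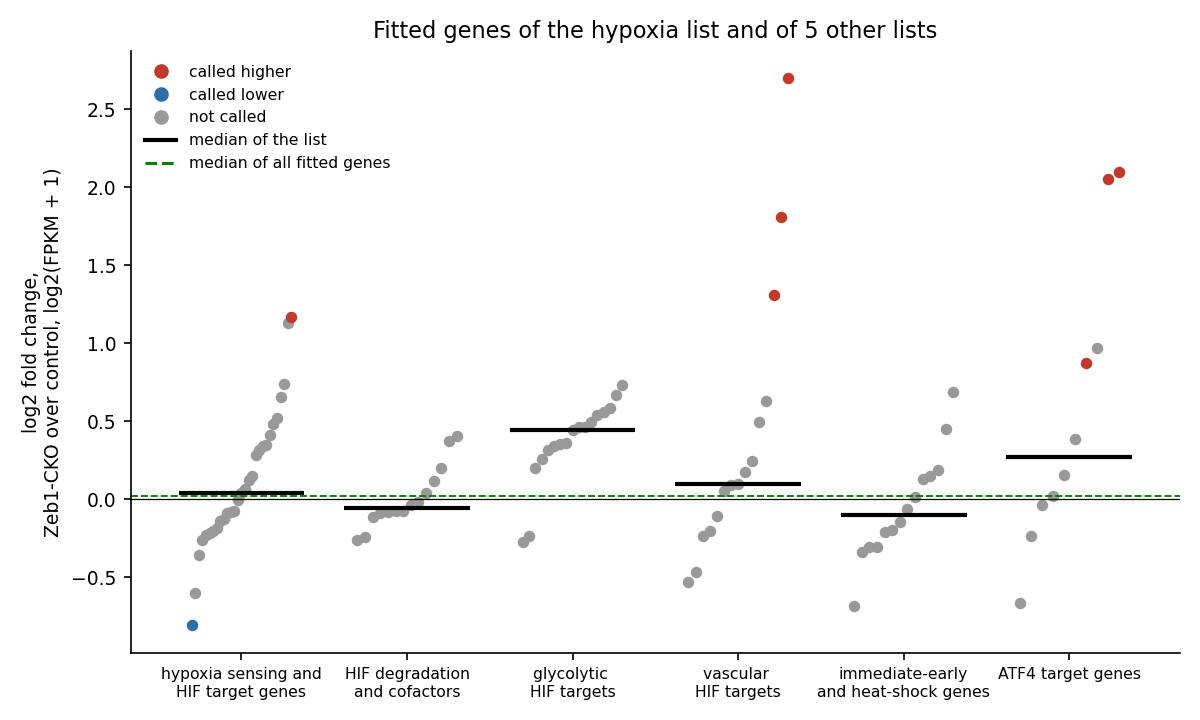
The log2 fold change on log2(FPKM + 1), Zeb1-CKO over control, of each tested gene in the hypoxia list (29 genes) and in 5 other lists; red and blue points were called higher and lower, black bars are list medians and the dashed line is the median of all tested genes. The hypoxia list has a median of 0.04 and the glycolytic list one of 0.45 with no called gene.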

How the data were processed

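Per the labels' protocols, RNA of 100 sorted cells per library was amplified with the SMART-Seq v4 kit, which does not mark strand. Trimmomatic 0.36, HISAT2 2.1.0, StringTie 1.3.3 and build mm10 are named in the submitters' processing notes. The deposited table holds FPKM per gene made by the authors; no unit stands in the header, and FPKM was inferred from the values and these tools. FPKM divides by the library total, so large changes elsewhere shift all genes. Spans come from GENCODE M21, where 53229 of the identifiers carry the same version and start.

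Depth was estimated from low values of genes with 1 transcript over 600 bases, of which 17.2% to 21.7% lay within 0.02 of a whole step, against 4% at random. Reads carry no molecular identifiers, so these depths overstate independent molecules.

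Genes averaging 1 FPKM or more were tested on log2(FPKM + 1) by genotype alone with limma 3.58.1 in R 4.3.3, its prior variance following intensity; FPKM are not counts, so no count test was run. It was checked on simulated data. Near-identical copies of the hypoxia genes were found with BLAST 2.17.0 (95% identity over 80% of either transcript, at least 200 bases). Genes of the other lists were not searched. Where a symbol had 2 identifiers, the more abundant was used. The rule for genes named with full values took those called, those with no overlap and a log2 fold change of at least 0.5, and the 5 most abundant, 12 in all; library values of the 19 others are also given; in other lists, up to 4 called genes or the 2 most abundant. The genes and lists were chosen with earlier results of these data known. Protein sequences were not used here. Figures were drawn with matplotlib 3.10.9.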

Additional observations from a re-analysis of the deposited data

How the results depend on the processing

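With 2 libraries per genotype the calls are fragile. Leaving out 1 library gave 0 members called higher and 0 lower each time, 48 to 238 genes higher and 15 to 64 lower among all genes tested, 3 to 6 calls in the 5 other lists, and a member median of -0.071 to 0.16. The replicate number as a block left 0 members called, and 155 genes higher and 38 lower in all. Libraries with the same number did not deviate together (r = -0.12 over 13651 genes), and the crossed pairing, chosen after seeing the data, gave 1 member called in each direction, and 306 genes higher and 149 lower in all. With no filter on low values, 0 members were called, and 70 genes higher and 15 lower in all, over 38986 genes tested. A mean of at least 5 FPKM left 23 members with a median of -0.076, removed Egln3 and called Ankrd37 and Ddit4, with 169 genes higher in all. Median-ratio scaling called 2 members higher, Egln3 and Ankrd37. A threshold of 0.1 on the adjusted p gave 2 members higher, 553 genes higher and 306 lower in all, and 12 calls in the other lists. Without the intensity trend 0 members were called lower. Other pseudocounts and quantile normalization kept both calls.

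Of 338 fold changes of members under alternatives, 310 kept their sign and side of the threshold and 13 changed sign. The 13 were all in genes that were not called and whose libraries overlap. Where libraries do not overlap, leaving out 1 library cannot change a sign. The replicate block, the fit without the intensity trend and the changed filters leave each fold change as it was. No sign could change in those fits, so the 310 include values whose sign was fixed. Of the 13, 12 came from leaving out 1 library. Over those 4 fits the log2 fold change ran from -0.29 to 0.13 for Bhlhe40 (positive without Zeb1-CKO 2), from -0.19 to 0.0087 for Bnip3l (positive without control 1) and from -0.096 to 0.18 for Egln2 (negative without Zeb1-CKO 2 or control 1). It ran from -0.38 to 0.23 for Fam162a and from -0.11 to 0.10 for Kdm3a, both positive without Zeb1-CKO 1 or control 1. It ran from -0.44 to 0.0063 for Loxl2 and from -0.090 to 0.38 for Ndrg1, both of the other sign without control 2, and from -0.17 to 0.30 for Vhl (negative without Zeb1-CKO 2 or control 2). With quantile normalization it was -0.000787 for Egln2. The cause of these changes was not tested. At the estimated depths, 1 fragment of a transcript of 2000 bases is worth 0.0228 to 0.0447 FPKM.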

Other observations

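Genes of the integrated stress response were read beside the hypoxia genes, because Ddit4 and Stc2 are also known as targets of the transcription factor ATF4. Of 12 ATF4 target genes, 10 were tested, and 3 rose and none fell, against 2.23% and 0.901% of all genes tested, with a median log2 fold change of 0.27. Of the 10, 7 had a positive fold change and 3 a negative one. Trib3, which encodes a pseudokinase, was at 13.5 and 13.9 FPKM in Zeb1-CKO libraries, against 2.07 and 2.82 FPKM in control libraries. Phgdh, the first enzyme gene of serine synthesis, was at 42.0 and 47.3 FPKM in Zeb1-CKO libraries, against 10.3 and 9.68 FPKM in control libraries. Chac1, a glutathione-degrading enzyme gene, was at 7.02 and 7.27 FPKM in Zeb1-CKO libraries, against 3.23 and 3.64 FPKM in control libraries. The genotypes did not overlap in any of the 3 genes. Other genes of the list went the other way. The amino acid transporter gene Slc7a5, named after its values were seen, was at 117 and 126 FPKM in Zeb1-CKO libraries, against 214 and 174 FPKM in control libraries, with a log2 fold change of -0.66 and an adjusted p of 0.0962 by limma. Psat1, another gene of serine synthesis, was at 5.56 and 5.88 FPKM in Zeb1-CKO libraries, against 6.24 and 7.63 FPKM in control libraries, also without overlap.

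Of 15 immediate-early and heat-shock genes, which respond to cell sorting among other stimuli, 14 were tested, none was called and 3 had an unadjusted p under 0.05, with a median log2 fold change of -0.10. Fos was at 2064 and 1914 FPKM in Zeb1-CKO libraries, against 2077 and 2064 FPKM in control libraries, and Btg2 at 680.3 and 650.1 FPKM in Zeb1-CKO libraries, against 765 and 773 FPKM in control libraries. The part of cell sorting in the values of Ddit4, Bhlhe40 and Hmox1, which are stress-responsive too, was not tested.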
